A study of Mus musculus with 4 samples.

Results

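The long noncoding RNAs H19, Malat1, Neat1, Meg3, Rian, Mirg and Oip5os1 were followed through chimeric Ago2 eCLIP-seq of mouse plantaris muscle. They are 7 of 49997 RefSeq genes, and their members are all lines of both peak files that overlap the gene on its own strand, whatever the miRNA. That rule took 1079 of 93468 peaks of single miRNAs in the MOV control library and 1120 of 100897 in the MOV mimic library. Both libraries came from the plantaris of adult C57BL/6J males aged 5 months, after 10 days of mechanical overload (MOV), in which part of the neighbouring calf muscles is removed so that the plantaris carries their load. The control muscle had received a TurboGFP lentivirus with a control miRNA construct and the mimic muscle the same kind of lentivirus with miR-1a-3p. Control virus went into the left and mimic virus into the right plantaris, so leg and treatment cannot be told apart. There was 1 library per group, input libraries were not analysed here, and no difference has a replicate check.

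Ago2 is the protein that holds a miRNA and, through it, the target RNA. In the chimeric form of eCLIP both RNAs are crosslinked, pulled down with Ago2 and ligated to each other, so that 1 read names the miRNA and the place it was bound. A miRNA recognises targets mainly by its seed, bases 2 to 8 from its 5′ end. Long noncoding RNAs carry such sites as well as mRNAs do, and several of them are known as hosts of miRNA genes or as sponges. H19 is an imprinted RNA of embryonic and regenerating muscle and the host of miR-675. Malat1 and Neat1 are abundant nuclear RNAs, the second the scaffold of paraspeckles. Meg3, Rian and Mirg lie in a row in the imprinted Dlk1-Dio3 region, which also encodes a large group of miRNAs. Oip5os1, also called Cyrano, is known for a nearly complete match to miR-7.

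The miRNAs that carried the reads at these genes are given from 5′ to 3′ with the seed in capitals, as RefSeq gives them with GRCm38.p6. The leading miRNAs of the strongest H19 site share letters close to their 5′ ends.
miR-130a-3p: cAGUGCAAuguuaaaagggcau
miR-301a-3p: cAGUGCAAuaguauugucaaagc
miR-152-3p: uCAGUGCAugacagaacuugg
miR-148a-3p: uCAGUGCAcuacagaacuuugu
miR-199a-5p: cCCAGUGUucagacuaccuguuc
miR-19b-3p: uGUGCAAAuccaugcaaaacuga

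Other miRNAs led the remaining H19 sites and the peaks of Malat1, Meg3, Rian and Oip5os1. Those of the miR-15/16 group and miR-503-5p, which met at 1 Malat1 site, have the seeds AGCAGCA and AGCAGCG.
miR-127-3p: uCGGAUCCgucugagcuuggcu
miR-29a-3p: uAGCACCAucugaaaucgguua
let-7c-5p: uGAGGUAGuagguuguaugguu
miR-16-5p: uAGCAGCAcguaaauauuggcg
miR-15a-5p: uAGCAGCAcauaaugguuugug
miR-503-5p: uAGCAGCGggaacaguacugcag
miR-101c: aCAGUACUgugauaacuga
miR-206-3p: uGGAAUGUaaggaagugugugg
miR-22-3p: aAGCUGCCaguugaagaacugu

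The control library held 232408 chimeric reads and the mimic library 259207, a ratio of mimic to control of 1.12. Only reads within called peaks are in these values. Library totals and shares are therefore of such reads, and reads outside peaks were not seen. The values are estimated counts of chimeric reads and mostly fractions, and 60.5% (control) and 61.6% (mimic) of the member values were below 1 read. Transcripts of muscle fibres (7 of 7 markers) held 15.8% and 18.6% of the reads and had a ratio of mimic to control of 1.31. Fibroblast markers (3 of 3) held 1.39% and 1.22%, leukocyte markers (2 of 3) had 30.6 and 49.6 reads, and the red cell markers (2 of 2) 16.8 and 22.8. The largest ratios were those of endothelium, with 11 and 35.2 reads (3.19), and of the smooth muscle marker, with 9.23 and 20.3 reads (2.19). Of the endothelial markers, 1 of 2 had reads in the control and 2 of 2 in the mimic. The markers of heart, liver, brain and adipocytes were at 0. The part of these shifts in the differences between the libraries was not tested. Intervals of reads, ratios and shares of reads are 95% intervals on rounded reads and cover counting error only. Those of medians and of shares of peaks are 95% intervals over peaks or sites taken as independent, which abutting peaks are not.

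Together the 7 genes held 5486 control and 6631 mimic reads. That was 2.36% (interval 2.30 to 2.42) and 2.56% (2.50 to 2.62) of each library. H19 dominated, with 83.5% and 84.9% of the member reads. H19 had 4582 control and 5627 mimic reads. It was the first of 63 and of 75 long noncoding RNAs with reads, and stood at rank 7 of 6660 and rank 6 of 6953 among all genes. Malat1 had 638 and 730 reads and was the second long noncoding RNA in both libraries. Neat1 had 182 and 201 reads and was at rank 4. The order H19, Malat1, Neat1 held in both libraries with intervals that did not overlap.

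The other members were read far less often. Meg3 had 37.7 control and 32.6 mimic reads. Rian had 31.1 and 28.5, and Oip5os1 15.3 and 12.9. Meg3 and Rian could not be ordered, since the interval of Meg3 in the control ran from 26.9 to 52.2 and that of Rian from 21.1 to 44.0. Mirg had 0 reads in both. For a count of 0 the limit given is a floor of 3 reads, not the upper end of the two-sided interval, which is 3.69. Both limits cover counting error only and take no account of reads where no peak was called. For Mirg that floor is 0.00129% and 0.00116% of the library. Per kilobase of gene span, introns included, H19 had 1751 and 2150 reads, Malat1 91.3 and 105, Neat1 8.78 and 9.67, Oip5os1 2.36 and 2.01, Meg3 1.23 and 1.06, and Rian 0.539 and 0.493. A higher read number can come from more RNA in the muscle, from more cells that make it, or from more binding per molecule, and these cannot be told apart here.

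**Figure D1:**
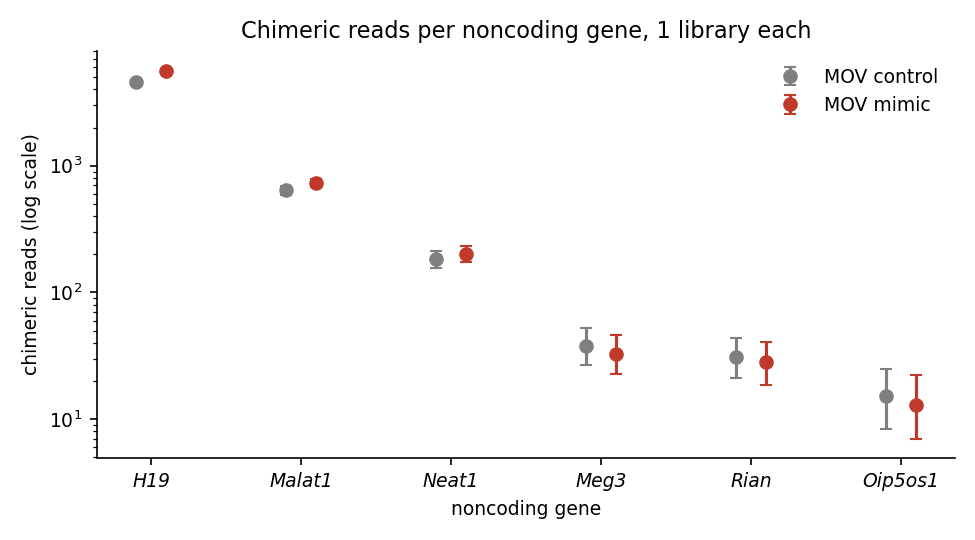
Chimeric reads at each noncoding gene (log scale) in the MOV control and MOV mimic library, 1 library each. Points are summed reads and bars exact Poisson 95% intervals. H19 lies at 4582 and 5627 reads, above Malat1 at 638 and 730, and Mirg, at 0 in both, is not drawn.

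The comparison of mimic with control asked whether delivery of a miR-1 mimic changed how much these RNAs were bound. A gene was called at a ratio of 1.5 or more in either direction, given at least 10 reads in both libraries. Of 2288 genes so compared, 14% were called higher and 7.95% lower, with a median ratio of 1.05. Of the 6 noncoding genes among them, 0 were called in either direction. H19 had the highest ratio of the 6, 1.23 (1.18 to 1.28), which was 1.1 after division by the library totals. Malat1 had a ratio of 1.14 (1.03 to 1.27) and Neat1 of 1.1 (0.899 to 1.36), which was 0.987 after that division. Meg3 had 0.863 (0.528 to 1.42), Rian 0.914 (0.522 to 1.56) and Oip5os1 0.848 (0.380 to 1.95). The intervals of Neat1, Meg3, Rian and Oip5os1 included both 1 and the ratio of the whole libraries.

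H19 is encoded on the minus strand at chr7:142575530-142578146 (GRCm38), a span of 2617 nt. Its reads came from 14 control and 12 mimic peaks, which covered 337 and 334 nt. They named 130 miRNAs in each library, 100 of them in both. Peaks at most 20 nt apart were joined to sites, and H19 had 5 sites, 3 of them in both libraries, which held 99.9% and 99.2% of its reads. Other genes were not joined to sites, so numbers of shared sites have no share over all genes beside them. The GRCm38 exons were not used here, so positions are counted from the 5′ end of the gene span.

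The strongest H19 site lay at chr7:142575741-142575897, 2250 to 2406 nt from the 5′ end. It had 2978 control and 3757 mimic reads, 65.0% and 66.8% of all H19 reads, a ratio of 1.26 (1.2 to 1.32). Its leading miRNA was miR-130a-3p, with 1296 and 1717 reads at H19. Nearly all of these lay in this site. Second was miR-199a-5p, with 716 reads at H19 (control) and 874 (mimic). Then followed at the site miR-152-3p with 226 and 240, miR-301a-3p with 108 and 161, miR-19b-3p with 83.6 and 90.1, miR-199b-5p with 70.1 and 115, and miR-148a-3p with 60.6 and 95.1 reads. The site was thus shared by miRNAs of several seed families, the leading 4 in the same order in both libraries.

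The highest peak of any member lay inside this site. It was that of miR-130a-3p, with 1096 reads at chr7:142575787-142575858 in the control and 1476 at chr7:142575784-142575856 in the mimic, a ratio of 1.35 (1.24 to 1.46). On the same peaks miR-199a-5p had 430 and 534 reads (1.24, 1.09 to 1.41) and miR-152-3p 173 and 186 (1.08, 0.869 to 1.33). The adjoining peak on the 3′ side had 220 and 336 reads of miR-199a-5p and 133 and 236 of miR-130a-3p. Between these peaks the control had another of 7 nt with 179 reads, 62.2 of them of miR-130a-3p, which had no separate counterpart in the mimic. Over the whole site the ratio was 1.32 for miR-130a-3p and 1.22 for miR-199a-5p. These 5 peaks of single miRNAs had the most reads at H19 with both libraries summed. In the control alone, the miR-127-3p peak at chr7:142576411-142576447 had 198 reads, more than miR-152-3p, and its mimic counterpart had 146 (0.734, 0.591 to 0.918). That counterpart, at chr7:142576411-142576474, also took in the place of the next control peak, which had 119 reads of miR-127-3p. Over the whole of that site the ratio of miR-127-3p was 0.459 (0.376 to 0.560).

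The leading miRNAs of this site share the letters CAGUG near the 5′ end. CAGUG begins at base 1 in miR-130a-3p and miR-301a-3p, at base 2 in miR-152-3p and miR-148a-3p and at base 3 in miR-199a-5p, as the sequences above show. Of the reads at the site whose miRNA had a sequence, 88.1% (control) and 89.6% (mimic) belonged to miRNAs with CAGUG within the first 9 bases. In the rest of the library it was 9.12% and 9.05%. miR-1a-3p and miR-133a-3p, both abundant there, had no sequence and are left out, which raises these shares of the rest. Of the 543 listed miRNAs with a sequence, 17 hold these letters there. The letters GUGCAA, which miR-19b-3p also has, covered 54.7% and 57.2% of the reads with a sequence at the site. In the rest of the library they covered 0.430% and 0.414% of such reads. These letters were chosen after the leading miRNAs were seen, so the shares describe the site and are not a test. The target sequence beneath the peak was not analysed here.

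The next H19 site on the 5′ side with reads in both libraries lay at chr7:142576204-142576331, 1816 to 1943 nt from the 5′ end, with 817 control and 1077 mimic reads (1.32, 1.2 to 1.45). Its miRNAs were those of the miR-29 group and of let-7. miR-29a-3p had 179 and 291 reads there, miR-29b-3p 83.0 and 106, and miR-29c-3p 44.0 and 96.3. let-7c-5p had 60.8 and 66.6 reads, let-7b-5p 44.6 and 54.9, let-7a-5p 32.5 and 56.2, and let-7f-5p 30.8 and 56.5. miR-127-3p had 71.9 and 32.0 there (0.444, 0.284 to 0.683). In the plot of H19 peaks the peaks led by miR-29a-3p lie on the 5′ side of the peak led by let-7c-5p. The miRNAs with GGUAG within the first 9 bases include the let-7 family and miR-196a-5p. Of the reads whose miRNA had a sequence, they had 30.8% and 30.9% at the site. In the rest of the library they had 21.8% and 21.4% of such reads, which leave out miR-1a-3p and miR-133a-3p. Over all reads outside H19 the let-7 seed had 12.8% and 11.7%.

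A further site at chr7:142576409-142576476, 1671 to 1738 nt from the 5′ end, was led by miR-127-3p. Its reads numbered 781 (control) and 750 (mimic), a ratio of 0.960 (0.868 to 1.06). Here miR-127-3p had 324 and 149 reads (0.459, 0.376 to 0.560), while miR-16-5p had 120 and 124. Others with the seed of miR-16-5p were miR-15a-5p, with 40.9 and 39.4 reads, and miR-195a-5p, with 29.4 and 31.9. Thus miR-127-3p leads as a single miRNA in both libraries. Pooled by seed, the group of miR-16-5p had fewer reads than miR-127-3p in the control but more in the mimic. miR-29a-3p had 41.9 and 67.3 reads and miR-22-3p 33.4 and 61.6. The total of the site was therefore close between the libraries while its leading miRNA was lower in the mimic and miR-29a-3p and miR-22-3p were higher.

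The remaining H19 sites were each in 1 library. The mimic had a site of 43.0 reads at chr7:142576096-142576113, with miR-125b-5p (6.38), let-7c-5p (5.42) and let-7b-5p (5.07) among its miRNAs. The control had a peak of 5.81 reads at chr7:142577110-142577121, within the Mir675 hairpin. Of these reads 5.0 were of miR-675-3p, the partner arm of the same hairpin. The stretch from the start of the 5p arm to the end of the peak is given with the 12 nt of the peak in capitals, 10 of which lie in that arm.
Mir675 5p arm to the end of the peak, chr7:142577110-142577133, minus strand: uggugcggaaagGGCCCACAGUGG
In the mimic library no peak was called on the hairpin, so how many reads it had there is not known.

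**Figure D2:**
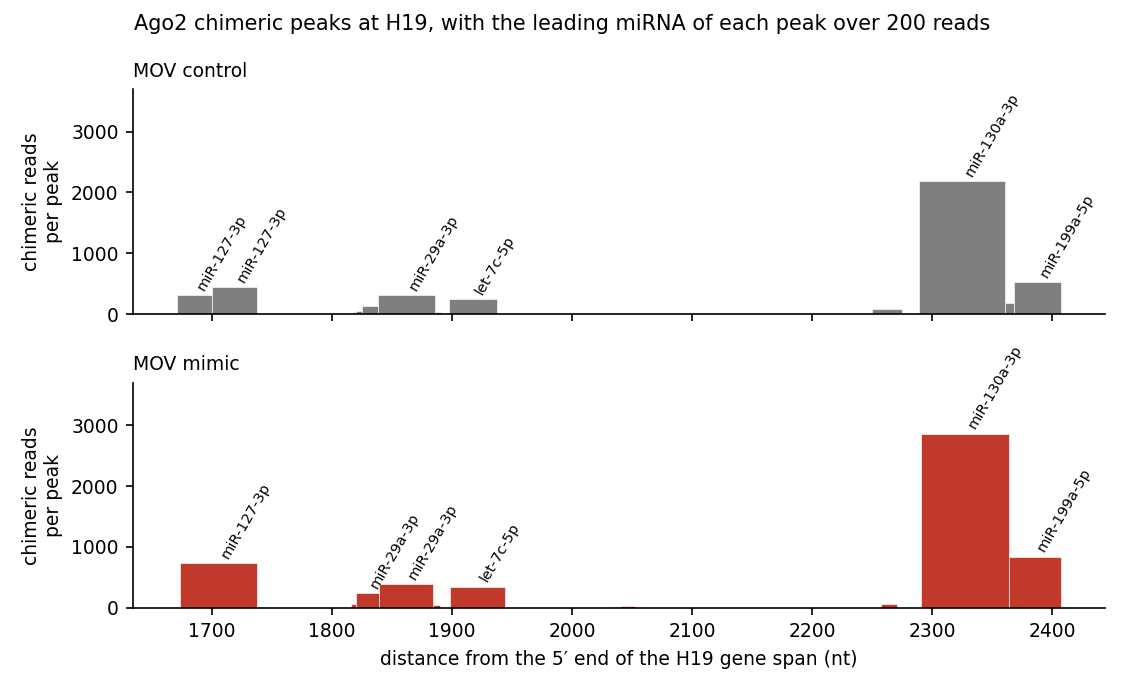
Chimeric reads per peak at H19 against the distance from the 5′ end of the gene span in nt, MOV control above and MOV mimic below. Bars have the width of the peak, and peaks over 200 reads carry the name of their leading miRNA. The peak led by miR-130a-3p stands above all others in both libraries, and the peak led by miR-127-3p is wide in the mimic and divided in the control. The control peak at the Mir675 hairpin lies outside the plotted range.

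The peaks of the libraries were not cut at the same places, as the plot of H19 peaks shows. At the miR-127-3p site the control had 3 peaks and the mimic 2. Values over whole sites or over the whole gene do not depend on these cuts, whereas those of single peaks do. Across the 42 combinations of an H19 site and a miRNA with at least 10 reads in both libraries, 33 had more reads in the mimic, and the median log2 change was 0.34 (0.13 to 0.57). Over single overlapping peaks with at least 10 reads it was 0.65 (n = 45), against 0.15 over all other overlapping peaks of the libraries. Other genes were not joined to sites, so the 0.34 over H19 sites has no such comparison.

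For several miRNAs H19 was the gene with the most of their reads in called peaks. Reads at places without a called peak are not in these totals. Of all miR-130a-3p reads in called peaks of the library, 88.9% (control) and 91.7% (mimic) lay on H19. For miR-301a-3p it was 64.9% and 72.3%, for miR-152-3p 44.1% and 42.6%, and for miR-199a-5p 43.2% and 48.7%. miR-127-3p had 36.7% and 26.8% there. Among the 96 miRNAs with at least 100 reads in both libraries, H19 was the gene with the most reads for 10 (control) and 12 (mimic). The median of these 96 had 0.565% and 0.679% of its reads on H19, and 14.4% and 13.3% on its own leading gene. By contrast, the abundant muscle miRNAs were hardly read there, with 0.234% and 0.180% of miR-1a-3p and 0.114% and 0.116% of miR-133a-3p.

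**Figure D3:**
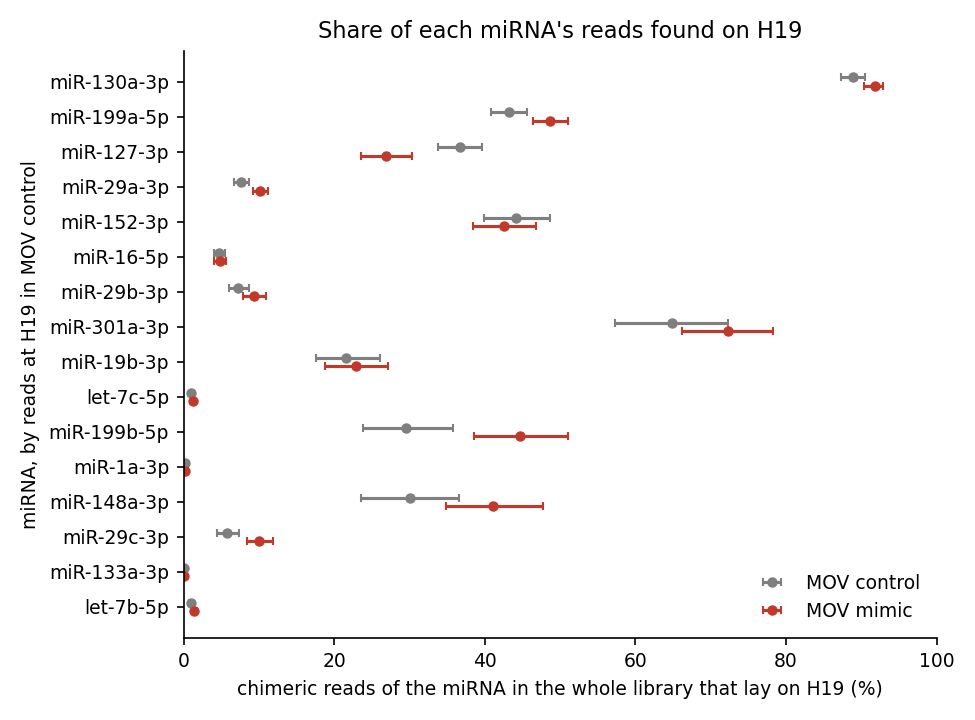
Percent of each miRNA's chimeric reads in called peaks of the library that lay on H19, for the 16 miRNAs with the most H19 reads in the MOV control. Points are shares and bars exact Clopper-Pearson 95% intervals, 1 library each. miR-130a-3p lies at 88.9% and 91.7%, and miR-127-3p at 36.7% and 26.8%.

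By seed, 31.1% of the control reads at H19 and 33.9% of the mimic reads belonged to AGUGCAA, the seed of miR-130a-3p, miR-130b-3p and miR-301a-3p. In the rest of the library that seed had 0.100% and 0.0899%. miR-130a-3p alone, the leading miRNA, held 28.3% (27.0 to 29.6) and 30.5% (29.3 to 31.7) of the H19 reads. CCAGUGU had 15.6% and 15.5% with miR-199a-5p alone, or 17.2% and 17.6% together with miR-199b-5p, and CAGUGCA (miR-148a-3p, miR-148b-3p and miR-152-3p) 7.02% and 7.03%. The miR-29 seed AGCACCA had 8.79% (7.99 to 9.65) and 11.3% (10.5 to 12.2), and miR-127-3p 8.75% (7.95 to 9.61) and 3.25%. The shares of the seeds had a cosine of 0.986 between the libraries over 575 seed families or names.

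Of the 1794 combinations of a gene and a miRNA with at least 10 reads in both libraries, 17.1% were called higher and 8.42% lower, with a median ratio of 1.09. The noncoding genes had 61 of them. Of these 14 were called higher and 2 lower, with a median of 1.24. H19 had 44, of which 11 were higher and 1 lower, with a median of 1.26. The highest ratios at H19 were those of miR-23a-3p, from 10.1 to 22.0 reads (2.19, 1.0 to 5.20), and miR-29c-3p, from 61.1 to 127 reads (2.08, 1.52 to 2.87). The 1 called lower was miR-127-3p, a miRNA of the Dlk1-Dio3 region, from 401 to 183 reads (0.456, 0.381 to 0.545).

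Each ratio was set beside that of the same miRNA at all other places. With at least 10 control reads elsewhere asked for as well, 34 of 43 miRNAs had the higher ratio at H19, the median being 1.25 there and 1.03 elsewhere. H19 as a whole had a ratio of 1.23 against 1.12 for the libraries, and its miRNAs share sites, so the 43 are not independent. The same share over all genes was not computed. For miR-130a-3p the ratio was 1.33 (1.23 to 1.43) at H19 and 0.957 (0.763 to 1.2) elsewhere. The miR-29 group had 403 and 637 reads at H19 (1.58, 1.39 to 1.80), against 1.11 (1.07 to 1.15) elsewhere. For miR-199b-5p the ratios were 1.64 (1.21 to 2.24) and 0.851 (0.675 to 1.07). These intervals did not overlap, nor did those of miR-199a-5p, miR-29a-3p, miR-29c-3p, miR-125b-5p, miR-22-3p, let-7a-5p and let-7f-5p, all higher at H19. For miR-127-3p the ratio was lower at H19 (0.456, 0.381 to 0.545) than elsewhere (0.720, 0.640 to 0.809), again without overlap. At Malat1, 6 of 13 miRNAs had the higher ratio at Malat1, and for 0 of 13 were the intervals apart. The most reads of a miRNA at Malat1 were 102 (control) and 159 (mimic), which makes for wide intervals.

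**Figure D4:**
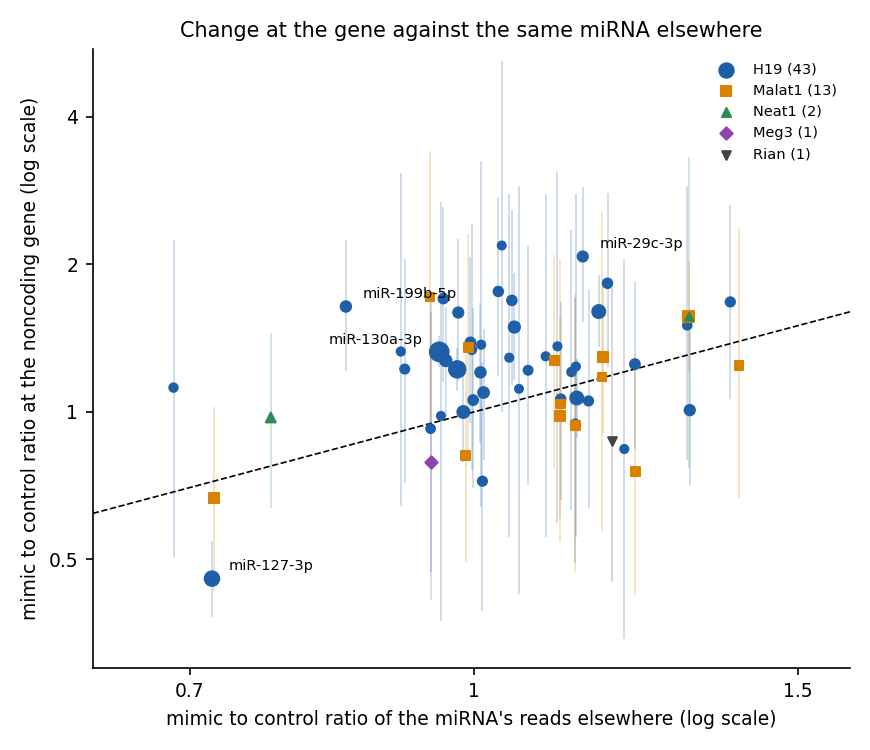
Mimic to control ratio of a miRNA's reads at a noncoding gene against its ratio everywhere else in the libraries, both on log scales, for 60 combinations with at least 10 reads at the gene in both libraries and at least 10 control reads elsewhere, which left out miR-130b-3p at H19. Bars are exact 95% intervals of the ratio at the gene, larger points have more control reads, and the dashed line marks equal ratios. Of the 43 H19 points 34 lie above the line, and miR-127-3p lies below it at 0.456.

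Known partners of H19 were looked up whatever their values. The let-7 family, which H19 is known to sponge, had 244 H19 control and 347 mimic reads (1.42, 1.2 to 1.68). That was 0.829% and 1.15% of all let-7 reads. miR-675, made from H19 itself, had 5.31 and 1.61 reads on H19, of 37.9 and 47.2 in the libraries. H19 therefore held a small share of the let-7 reads. Yet for let-7c-5p, the let-7 with the most H19 reads, H19 stood at rank 9 (control) and 10 (mimic) among genes. The gene at rank 1, mt-Rnr1, held 37.2% and 32.7% of the let-7c-5p reads. The let-7 seed had 5.33% and 6.17% of the H19 reads, against 12.8% and 11.7% in the rest of the library.

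Malat1 lies on the minus strand at chr19:5795690-5802672 and had 13 sites, 8 of them in both libraries. The shared sites held 94.1% and 95.5% of its reads, spread along the gene. miR-1a-3p, the muscle miRNA that the mimic supplies, was the leading miRNA, with 102 control and 159 mimic reads (1.56, 1.21 to 2.02). Elsewhere its ratio was 1.31 (1.29 to 1.33), and the intervals overlapped. It held 16% (13.2 to 19.1) of the control reads at Malat1 and 21.8% (18.8 to 25) of the mimic reads. In the rest of the library its share was 11.8% and 13.8%.

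Most of these miR-1a-3p reads were at 1 site, chr19:5800924-5801068, 1605 to 1749 nt from the 5′ end. There it had 94.9 control and 152 mimic reads (1.61, 1.23 to 2.09). miR-206-3p, whose seed it shares, had 12.9 and 20.7 reads on the same peak (1.61, 0.772 to 3.51). The whole site had 121 and 203 reads (1.68, 1.33 to 2.12), the highest ratio of any Malat1 site in both libraries.

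The largest Malat1 site in the control lay at chr19:5797551-5797715, with 209 reads against 187 in the mimic (0.892, 0.731 to 1.1). It was shared by the miR-15/16 group and miR-503-5p. miR-503-5p had 51.8 and 37.4 reads there, miR-16-5p 35.5 and 28.9, miR-15a-5p 25 and 37.8, and miR-195a-5p 18.2 and 13.9. Over the gene the miR-15/16 group had 110 and 117 reads (1.06, 0.813 to 1.39), and Malat1 was the leading gene of miR-503-5p, with 20.5% and 19.2% of its reads. Over the gene miR-503-5p went from 57.4 to 38.2 reads (0.666, 0.430 to 1.02), and elsewhere its ratio was 0.721 (0.586 to 0.888). The miR-199-3p reads of this site were named miR-199b-3p in the control (17.3) and miR-199a-3p in the mimic (9.77), names for 1 mature sequence. They are described here as the same miRNA, but counts, overlaps and ratios by miRNA name kept them apart.

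The other Malat1 sites were mostly led by 1 miRNA each. Close to the 5′ end, at chr19:5802334-5802470, miR-101c had 53.1 and 70.9 reads (1.34, 0.925 to 1.95), and Malat1 was its leading gene in both libraries. miR-143-3p had 28.7 and 38.8 reads at chr19:5797916-5798030 (1.35, 0.811 to 2.25). miR-214-3p had 31.7 and 29.9 reads at chr19:5797774-5797885 (0.944, 0.550 to 1.59). At chr19:5798221-5798297 miR-133a-3p had 18.5 and 10.3 reads and miR-378a-5p 15.2 and 17.9. All these intervals included 1. At chr19:5797423-5797524 the control had 32.8 reads, 9.66 of them of miR-23a-3p. The mimic had no peak there, so how many reads it had at that place is not known. Of the miR-133 miRNAs, known as partners of Malat1, 36.0 and 28.4 reads lay on Malat1 (0.788, 0.457 to 1.31). The miR-181 family and miR-9-5p, also known as partners, had 0 reads on Malat1. For miR-181 the floor of 3 reads is 0.493% and 0.476% of its 609 and 630 reads in the libraries. miR-9-5p had only 7.88 and 3.41 reads in all, so its place could not be seen at this depth.

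**Figure D5:**
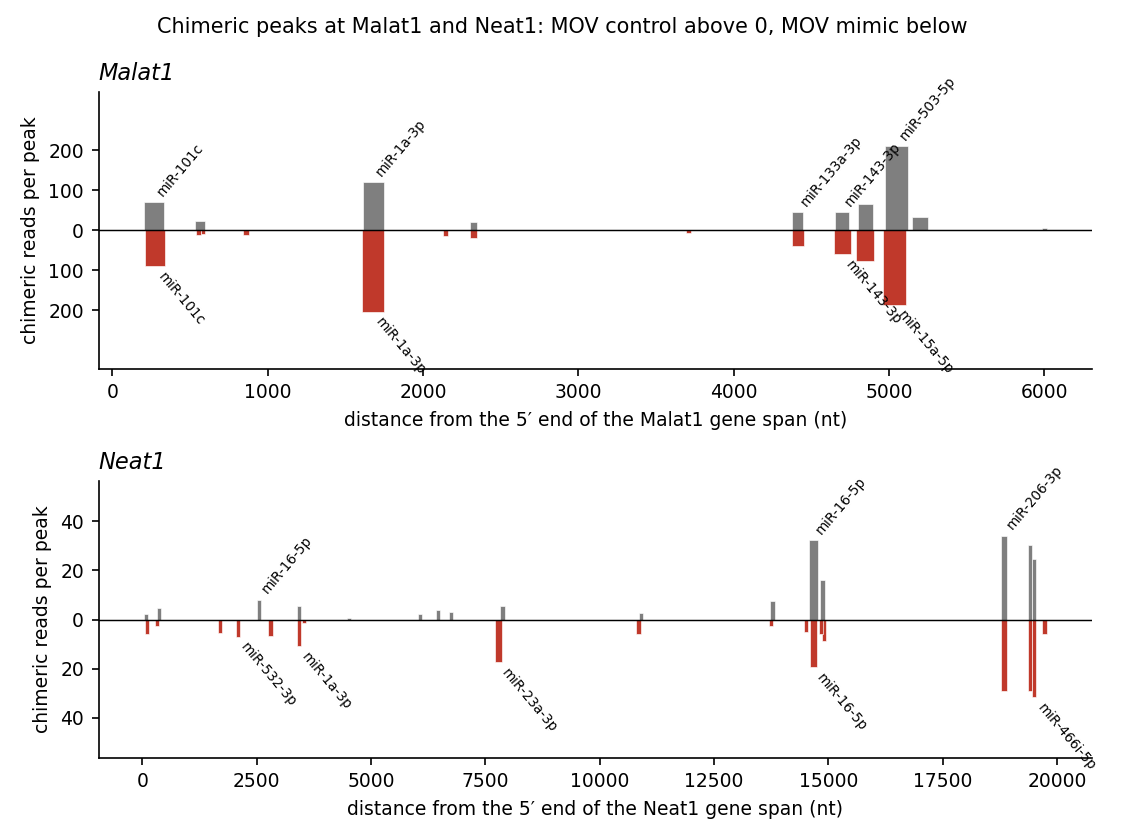
Chimeric reads per peak along Malat1 and Neat1, as distance from the 5′ end of each gene span in nt, with the MOV control drawn upward and the MOV mimic downward from 0. Bars narrower than 30 nt (Malat1) or 90 nt (Neat1) are widened to that size, and names are those of leading miRNAs, left out where they would overlap. The Malat1 peak led by miR-1a-3p reaches 121 control and 203 mimic reads, and the highest Neat1 peaks lie near the 3′ end.

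Neat1 spans 20773 nt on the minus strand at chr19:5824708-5845480 and had 21 sites, 10 of them in both libraries. Of its 98 control peaks of single miRNAs, 34.7% overlapped a mimic peak of the same miRNA, near the 35.2% of peaks outside the 7 genes. The leading miRNA was miR-466i-5p, with 50.6 control and 49.3 mimic reads (0.974, 0.636 to 1.45), 27.7% and 24.5% of the Neat1 reads. No sequence was available for miR-466i-5p under this name, so its seed is not given. In the rest of the library miR-466i-5p had 1.59% and 1.1%. Nearly all of these reads, 49.8 and 48.9, came from 1 site at chr19:5825935-5826121, near the 3′ end. It was the only miRNA with at least 10 reads at a single Neat1 peak in both libraries.

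Its other reads were scattered. The peak at chr19:5826570-5826709 had 34.1 and 29.1 reads, led in the control by miR-206-3p with 8.15. The site at chr19:5830719-5830905 had 32.2 and 19.4, led by miR-16-5p with 8.08 and 6.80. miR-1a-3p had 13.9 and 21.8 reads over the gene (1.56, 0.769 to 3.32), of which 4.84 and 10.9 lay at chr19:5842023-5842084. miR-206-3p had 12.2 and 6.71 reads and miR-133a-3p 5.0 and 13.2. None of these 3 differences had an interval that left out 1. The Neat1 site at chr19:5837555-5837773 had 5.6 and 17.3 reads (3.10, 1.07 to 8.78), with miR-23a-3p (4.68) and miR-23b-3p (4) leading in the mimic. In the mimic miR-23b-3p was listed in all 18 Neat1 peaks, in 16 of them below 0.05 reads, so numbers of miRNAs per peak say little here.

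The Dlk1-Dio3 transcripts were thinly read. Meg3, on the plus strand at chr12:109540996-109571729, had 7 sites, 2 of them in both libraries. Of its 15 control peaks of single miRNAs, 26.7% (7.79 to 55.1) overlapped a mimic peak of the same miRNA. For peaks outside the 7 genes it was 35.2%. miR-206-3p, a muscle miRNA with the seed of miR-1, held 22.1 of its 37.7 reads in the control and 17.5 of 32.6 in the mimic (0.790, 0.414 to 1.6). With miR-1a-3p (6.48 and 4.69 reads) this seed held 75.9% and 68.1% of the Meg3 reads. Its main peak, at chr12:109546552-109546685 in the control, had 16.9 and 10.7 reads of miR-206-3p. miR-16-5p had 3.0 and 0 reads at Meg3 and miR-15a-5p 0 and 3.6.

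Rian, on the plus strand at chr12:109603945-109661716, was led by miR-22-3p, with 20.4 of 31.1 reads in the control and 17.7 of 28.5 in the mimic (0.870, 0.449 to 1.79). These lay at 1 site, chr12:109650727-109650899. miR-22-3p held 65.5% (45.4 to 80.8) and 62.3% (44.1 to 81.4) of the Rian reads, against 2.20% and 2.34% in the rest of the library. miR-133a-3p followed with 2.58 and 3.78 reads and let-7i-5p with 2.33 and 2.51. miR-1a-3p had 0 reads on Rian in both libraries.

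Mirg, at chr12:109734981-109749458, had 0 reads. Its span holds 10 miRNA hairpins, and the mature miRNAs of these hairpins had 187 and 162 reads elsewhere in the libraries, 0 of them on Mirg. The miRNAs made from this region were thus seen on other RNAs while the host RNA itself was not seen as a target.

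Oip5os1, on the plus strand at chr2:119594296-119600746, had 1 peak in each library, at chr2:119596271-119596340 in the control and chr2:119596274-119596343 in the mimic. Its 15.3 and 12.9 reads were mostly of the miR-29 group, with 10.5 and 8.59 reads, 68.6% (38.4 to 88.2) and 66.4% (38.6 to 90.9). miR-29a-3p had 5.83 and 2.27, miR-29b-3p 2.63 and 4.50, and miR-29c-3p 2.0 and 1.82. miR-1a-3p had 2.22 and 1.71. miR-7, the partner for which this RNA is known, had 0 reads on it in both libraries. There were 23.9 and 17.5 miR-7 reads in all, of which the floor of 3 reads is 12.6% and 17.1%, with upper ends of the two-sided intervals at 14.2% and 18.5%.

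Because the mimic supplied miR-1, its reads on all members were added up. miR-1a-3p had 189 reads on the 7 genes in the control and 252 in the mimic (1.34, 1.1 to 1.62), near its ratio of 1.31 over the whole libraries. H19 had 64.0 and 64.5 reads of miR-1a-3p (1.01, 0.708 to 1.46), while the members without H19 had 124 and 187 (1.5, 1.2 to 1.91). Malat1 supplied most of the latter.

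Peaks of the same miRNA recurred between the libraries more often at these genes than elsewhere. Of the 1079 control peaks of single miRNAs, 64.7% (61.8 to 67.5) overlapped a mimic peak of the same miRNA, against 35.2% (34.9 to 35.5) of all other control peaks. H19 had 74.4%, Malat1 42.7% and Neat1 34.7%, and without H19 the share was 39.5%. Among peaks with 1 to under 3 reads the shares were 70.4% for members and 38.6% for other peaks, and among peaks with at least 10 reads 98.7% and 97.0%. Peaks were matched by name, so miR-199a-3p and miR-199b-3p counted as different miRNAs. Abutting peaks at H19 list the same miRNAs, so these peaks are not independent. Over all overlapping peaks the median log2 change was 0.35 (0.25 to 0.46, n = 566) at the members and 0.04 (0.03 to 0.05) at the others. It was 0 without H19, with 0.46 (0.35 to 0.57) at H19, 0.00 (-0.25 to 0.42) at Malat1 and -0.25 (-0.73 to 0.23) at Neat1. These medians pair single peaks and so depend on where each library cut them. Limited to values of 10 reads or more, the members had 0.47 over single peaks (n = 62). Over sites they had 0.29 (0.12 to 0.42, n = 58). The other genes were not joined to sites, so their contrast with the members was not tested apart from these cuts.

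The miRNA makeup of each gene was compared with that of the 180 genes with at least 100 reads in both libraries, by the cosine of read shares over seed families, as a description. H19 had low values with all of them. Its closest were the collagens Col3a1 (0.308) and Col6a3 (0.30) and Nrep (0.267), with a median of 0.0829. Malat1 was closest to Igfbp5 (0.725), which encodes a binding protein of insulin-like growth factors, to Pdlim3 (0.717) and to Ptpn4 (0.673). Neat1 was closest to the noncoding RNA Nctc1 (0.827), then Zbtb20 (0.545) and Fstl1 (0.519). Nctc1 was also the leading gene of miR-466i-5p, the leading miRNA of Neat1, with 4.73% and 5.64% of its reads. How far the likeness of Neat1 and Nctc1 rests on this miRNA was not tested. Libraries, depth and abundant miRNAs are shared by all these genes.

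Other noncoding RNAs give the setting. Of a list of 30, 28 were in RefSeq, 11 had peaks in both libraries and 15 in neither. Of the 8 with at least 10 reads in both, 1 was called higher and 1 lower. Rn7sk, the RNA of the 7SK particle that holds back transcription elongation, went from 255 to 454 reads (1.78, 1.52 to 2.08). Lncpint went from 18.9 to 10.9 (0.578, 0.249 to 1.28). Airn had 48.1 and 44.7 reads, Tug1 33.3 and 27.6, and Gas5 29.1 and 31.1, all far below H19.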

How the data were processed

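Both chimeric eCLIP-seq peak files, control and mimic, were used, and the inputs were left out. The deposited values are estimated counts, chimeric reads of 1 miRNA in 1 peak, not scaled to depth by the authors. Per the methods, adapters were trimmed, repeats filtered, reads aligned with STAR, duplicates removed by start position and random sequence, and peaks called with CLIPper. The submitters' processing notes name UMI-tools 1.1.1, cutadapt 3.2, STAR 2.7.7a, Bowtie 1.2.3, HOMER 4.11 and mm10, whereas the methods name mm9. The spans of H19, Meg3 and Oip5os1 in the mm9 annotation held 0 peaks, so GRCm38 (mm10) was used. How fractions of reads arose was not given in the sources used here. A miR-1 primer is described, yet most reads were of other miRNAs, so shares of miRNAs describe these files only.

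Lines were assigned to a gene on its strand with an overlap of at least 1 nt, using RefSeq GRCm38.p6 spans. The strand of H19 and Neat1 came by name from GENCODE. Mature sequences covered 89.9% (control) and 88.9% (mimic) of the member reads. With 1 library per group no test was made. Ratios have exact conditional binomial, shares Clopper-Pearson, reads Poisson and medians order-statistic 95% intervals, computed with scipy 1.17.1. Reads were rounded for all but the medians. Of these, only the ratio intervals were tested on simulated reads. Those were independent whole numbers, whereas the deposited values are mostly fractions.

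Named were the 7 genes, the 3 miRNAs with the most reads per gene and library, all peaks of single miRNAs with at least 10 reads in both libraries, or the 5 highest where there were over 10, known pairs, and the 3 genes of most like makeup. Other miRNAs and sites were named after their values were seen. Members and lists were chosen with earlier results of these data known. Alternatives covered scaling, read minimums of 1 and 3, an overlap of 50%, hairpin peaks, pooling by seed and leaving out the highest peak.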

Additional observations from a re-analysis of the deposited data

How the results depend on the processing

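No paired analysis was possible because there were no replicates, and none could be left out. Of 145 alternative values, 81 stayed within the interval of the main value (for counts, within 1.5 times), and the others did not. Ratios crossed 1 for H19, Neat1, Meg3 and Rian. H19 was higher in the mimic by reads (1.23) but not by the number of peaks of single miRNAs, whose ratio was 0.973, and its ratio was 1.1 after division by the library totals and 1.09 after division by totals without the mitochondrial chromosome and the 45S rRNA locus. The ratio of Malat1 was 1.03 and 1.02 under these scalings, and that of Neat1 0.987 and 0.980, with 0.972 at a minimum of 3 reads and 1.44 by number of peaks. Meg3 had 1.07 by number of peaks and Rian 1.02 at a minimum of 1 read. The share of the library at the 7 genes (2.36% control and 2.56% mimic) was 3.01% and 3.26% over peaks with at least 3 reads, 2.96% and 3.19% without the mitochondrial chromosome and 45S locus, and 1.15% and 1.11% of peaks. With at least 1 read, 426 and 430 member peaks were left, and with at least 3 reads 176 and 179. The share of H19 reads of the leading miRNA was 31.1% and 33.9% with miRNAs pooled by seed, and 31.0% and 32.8% with at least 3 reads. That of Malat1 was then 19.4% and 25.9%. Recurrence of control peaks (64.7%) was 68.3% with at least 1 read, 84.7% with at least 3 reads and 51.2% with a reciprocal overlap of 50%. The median log2 change (0.35) was 0.19 after division by the library totals. Alternatives chosen after seeing the data joined peaks to sites, which gave a median of 0.29, and left out H19, which gave shares of 0.389% and 0.388%, a recurrence of 39.5% and a median of 0. The results over all members therefore rest on H19. Oip5os1 has 1 peak, so its value without the highest peak was not computed. Depth limits Meg3, Rian and Oip5os1, each under 40 reads per library. The causes of these shifts were not tested.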
